A study of Homo sapiens with 32 samples.

Results

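The genes for the insulin-like growth factor (IGF) binding proteins IGFBP1 to IGFBP7 were examined in 2 human cancer cell lines after 3 drug treatments. They were taken by symbol, each symbol having 1 Ensembl gene ID, and are 7 of the 60728 genes in the count table. The lines were SK-MEL-147, a melanoma line, and A549, a lung adenocarcinoma line. The study set out to compare a diapause-like state, brought on by INK128, with senescence brought on by palbociclib or doxorubicin. INK128, an inhibitor of the kinase mTOR, was given at 100 nM to SK-MEL-147 and 200 nM to A549 and was renewed at each change of medium, every 3 days. Palbociclib, an inhibitor of the cell cycle kinases CDK4 and CDK6, was given at 1 µM to SK-MEL-147 and 5 µM to A549. Both lines received 100 nM of doxorubicin, a DNA-damaging topoisomerase II poison. Palbociclib and doxorubicin were withdrawn after 72 h, and RNA of treated and control cells was taken on day 7. The series text names another melanoma line, SK-Mel-103, for the INK128 arm, whereas every INK128 sample of melanoma cells carries the label SK-MEL-147; the sample labels were followed.

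IGF binding proteins are secreted carriers that hold IGF-I and IGF-II away from the IGF1 receptor, and proteases that cut them set the growth factors free. IGFBP3 and IGFBP5 can join a larger complex with the acid-labile subunit, IGFBP4 is the best-known substrate of the protease PAPPA, IGFBP6 prefers IGF-II, and IGFBP7 binds IGFs only weakly. Several of them, IGFBP3 and IGFBP7 among them, are known from other work as secreted products of senescent cells.

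The 200 bases before the transcription start are shown for the 4 genes that rose in at least 1 line and have a single start in the RefSeq table, build GRCh38.p14. The sequence of IGFBP3 covers chr7:45921273-45921472 on the minus strand, that of IGFBP4 chr17:40443250-40443449 on the plus strand, that of IGFBP5 chr2:216695550-216695749 on the minus strand, and that of IGFBP6 chr12:53097467-53097666 on the plus strand. For IGFBP3 and IGFBP6 the RefSeq start lies inside the gene as GENCODE 29 draws it, so these windows cover bases that GENCODE places within the gene. Capitals mark a TATA-like hexamer near the start, which is TATATA in IGFBP3, TATAAA in IGFBP4 and TTTAAA in IGFBP5, and in IGFBP6 a GTAAACA, the reverse complement of the forkhead core TGTTTAC.
IGFBP3: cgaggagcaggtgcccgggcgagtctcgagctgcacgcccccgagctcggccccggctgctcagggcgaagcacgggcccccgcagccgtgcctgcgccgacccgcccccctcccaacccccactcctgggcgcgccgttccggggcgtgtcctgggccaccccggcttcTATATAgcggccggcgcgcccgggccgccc
IGFBP4: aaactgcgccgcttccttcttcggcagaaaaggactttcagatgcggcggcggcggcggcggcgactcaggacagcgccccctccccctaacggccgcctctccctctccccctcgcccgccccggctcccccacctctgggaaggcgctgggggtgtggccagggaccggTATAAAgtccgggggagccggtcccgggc
IGFBP5: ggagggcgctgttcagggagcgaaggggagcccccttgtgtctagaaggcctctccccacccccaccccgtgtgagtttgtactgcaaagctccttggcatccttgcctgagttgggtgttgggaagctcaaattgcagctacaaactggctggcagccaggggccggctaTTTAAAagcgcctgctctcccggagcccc
IGFBP6: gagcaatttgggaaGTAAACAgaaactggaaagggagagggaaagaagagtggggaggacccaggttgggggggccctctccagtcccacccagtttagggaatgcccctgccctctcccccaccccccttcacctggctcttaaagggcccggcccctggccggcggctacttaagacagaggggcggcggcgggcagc
The hexamer began 30 bases before the start in IGFBP3 and 29 bases before it in IGFBP4 and IGFBP5. Of 35116 RefSeq windows of 250 bases before a start, searched on both strands, 21.2% held any of the 3 hexamers. Only 4.11% held one on the gene's own strand beginning between 35 and 25 bases before the start. TGTTTAC was in 2.98% of the windows. None of these motifs was in the 3 windows of IGFBP2. IGFBP1 and IGFBP7 were not in the table. A match in these windows is a description of the letters and not a bound site.

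The genes lie at 5 places in the genome (GRCh38, GENCODE 29). IGFBP1 (chr7:45888357-45893668, plus strand) and IGFBP3 (chr7:45912245-45921874, minus strand) stand tail to tail, 18.6 kb apart. IGFBP2 (chr2:216632828-216664436, plus strand) and IGFBP5 (chr2:216672105-216695525, minus strand) stand the same way, 7.7 kb apart. Neither gap holds a protein-coding gene. IGFBP4 is at chr17:40443461-40457731 and IGFBP6 at chr12:53097436-53102345, both on the plus strand, and IGFBP7 is at chr4:57030773-57110385 on the minus strand.

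Each of the 8 groups had 4 libraries. Total counts ran between 17929732 and 32407057 in SK-MEL-147 and between 28150560 and 33331334 in A549. The A549 libraries are titled 1, 2, 2-2 and 3. Libraries 2 and 2-2 of a group were added together as replicate 2, so that n is 4 in SK-MEL-147 and 3 in A549, but both are shown wherever single libraries are given. The labels do not say that replicates were separate cultures, so p-values measure only the spread between these samples. Levels are library-scaled counts (CPM, with TMM scaling over all 32 libraries). Summed over 10 epithelial marker genes, group means ran over 79.2 to 104 CPM for SK-MEL-147, against 4331 to 12621 CPM for A549. Nearly all of the A549 sum was KRT7, KRT8 and KRT18, and EPCAM was at 3.44 to 6.81 CPM there. For 10 melanocyte marker genes SK-MEL-147 had group sums of 675 to 1058 CPM, against 35.4 to 71.7 CPM for A549, but nearly all of the SK-MEL-147 sum was SOX10 (216 to 557 CPM) and MCAM (375 to 732 CPM). MLANA and TYR were under 0.1 CPM in every SK-MEL-147 group, and MITF was lower there, at 4.95 to 11.1 CPM against 18.0 to 35.6 CPM in A549. The lung markers SFTPB and NKX2-1 were also under 0.1 CPM in every A549 group, and NKX2-1 was at 0.0925 to 0.825 CPM in SK-MEL-147. The share of mitochondrial counts was 14.3% to 18.3% in the treated A549 libraries titled 1, against 8.26% in the control library titled 1. In the other A549 libraries it was 11.5% to 14.8% with INK128, 8.30% to 9.81% with palbociclib, 7.53% to 9.38% with doxorubicin and 5.98% to 8.42% in control cells.

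Palbociclib and doxorubicin raised IGFBP3 and IGFBP7 in both lines, IGFBP4 and IGFBP6 in SK-MEL-147, and IGFBP1 and IGFBP5 in A549. INK128 raised IGFBP7 in both lines, but by less, raised IGFBP6 in SK-MEL-147, and lowered IGFBP3 in SK-MEL-147 and IGFBP2 in A549. These calls are from fits without a replicate block. In A549, where replicate numbers pair the samples, the block also called IGFBP1 higher and IGFBP6 lower with INK128, and IGFBP6 higher with doxorubicin. In A549 the IGFBP7 difference between INK128 and palbociclib lost its call in 8 of 17 alternatives, and that from doxorubicin in 4 of 17. All 7 genes passed the filter on low counts in A549 and 5 did in SK-MEL-147, where IGFBP2 and IGFBP5 were too low. With no filter, IGFBP5 was called higher with each drug in SK-MEL-147 too, and its line differences were not called. Tests were edgeR quasi-likelihood tests over all genes of a line, with Benjamini-Hochberg adjusted p under 0.05 as the call.

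In SK-MEL-147, INK128 called 3 of 5 members against control (58.7% of all 18516 genes were called), palbociclib 4 of 5 (58.4%) and doxorubicin 4 of 5 (59.8%). In A549, INK128 called 2 of 7 (40.2% of all 19550 genes), palbociclib 4 of 7 (43.3%) and doxorubicin 4 of 7 (43.3%). The INK128 count in A549 became 3 or 4 in 9 of its alternatives, 4 with the replicate block among them. With so few members, these shares set nothing particular to the family beside those of all genes. With palbociclib, 4 of 5 members tested were called higher in SK-MEL-147 and 4 of 7 in A549, beside 29.7% and 22.2% of all genes tested. With doxorubicin the member counts were the same, beside 30.9% of all genes in SK-MEL-147 and 22.4% in A549. No member was called lower in these 4 comparisons. The median log2 change of the members tested was 1.80 with palbociclib and 1.84 with doxorubicin in SK-MEL-147, and 1.88 and 1.53 with these drugs in A549. Medians over all genes tested lay between -0.0018 and 0.02 in these 4 comparisons. The 3 drugs were set against the same control libraries in each line. In bulk RNA, fewer cells of a type and less RNA per cell cannot be told apart.

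**Figure D1:**
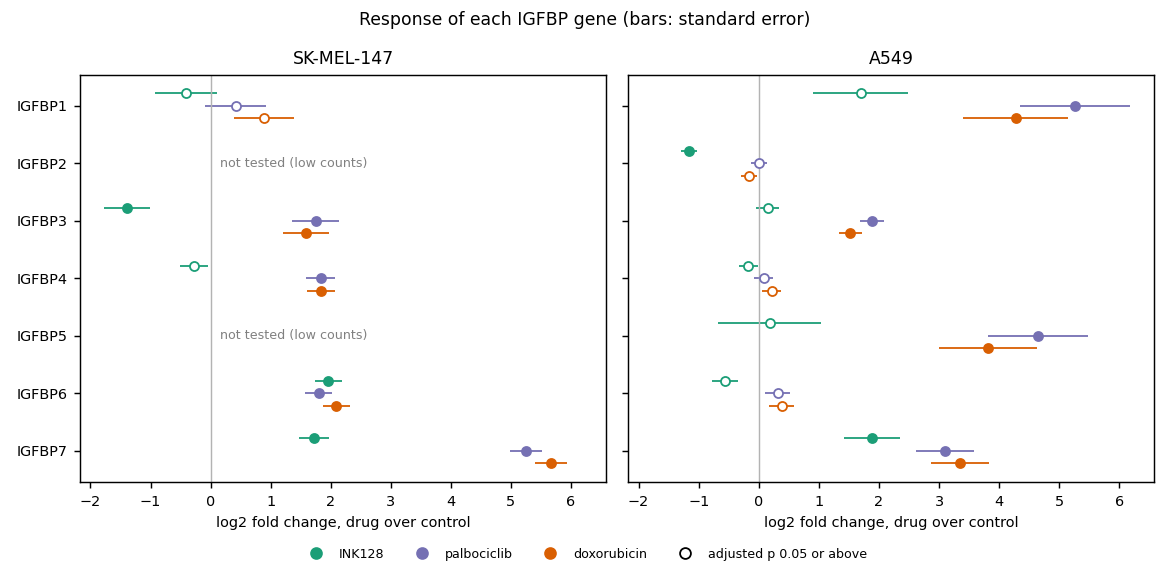
Log2 fold change of each IGFBP gene, drug over control (x axis), in SK-MEL-147 (left) and A549 (right), with the standard error as bars. Filled points passed an adjusted p of 0.05; IGFBP7 lies at 5.67 with doxorubicin in SK-MEL-147 and 3.35 in A549, and IGFBP3 is the member with points on both sides of 0 past the threshold, at -1.39 with INK128 and 1.75 with palbociclib in SK-MEL-147.

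IGFBP7, the weak IGF binder also known as a basement membrane protein and tumour suppressor candidate, had the largest change of the 5 members tested in SK-MEL-147 with palbociclib and with doxorubicin; with INK128 IGFBP6 rose more. There it stood at 4.77, 5.85, 5.53 and 4.34 CPM with INK128, 43.7, 51.3, 71.5 and 77.6 CPM with palbociclib, 59.1, 102, 76.4 and 88.2 CPM with doxorubicin, and 2.25, 1.62, 0.969 and 1.21 CPM in control cells. The lowest library of each drug lay above the highest control library, and the palbociclib and doxorubicin libraries lay far above all those of INK128. IGFBP7 rose by 1.72 ± 0.25 (log2 ± SE) with INK128, adjusted p = 2.4e-05. It rose by 5.25 ± 0.26 with palbociclib, 38.2-fold, adjusted p = 1.4e-09, and by 5.67 ± 0.27 with doxorubicin, 51.0-fold, adjusted p = 5.2e-10. Its log2 difference between INK128 and palbociclib was -3.54 ± 0.24, and that between INK128 and doxorubicin was -3.95 ± 0.24, adjusted p = 3.4e-08 and 2.0e-08.

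In A549, IGFBP7 was at 52.3, 119, 115 and 89.2 CPM with INK128 in libraries 1, 2, 2-2 and 3, at 140, 299, 183 and 226 CPM with palbociclib, at 125, 282, 292 and 313 CPM with doxorubicin, and at 40.7, 12.4, 16.3 and 16.2 CPM in control cells. No drug library overlapped the control libraries. Library 1 was the lowest of its group with each drug and the highest of the control group. IGFBP7 rose by 1.88 ± 0.46 (log2 ± SE) with INK128, by 3.10 ± 0.48 with palbociclib and by 3.35 ± 0.49 with doxorubicin, with adjusted p = 0.0077, 0.00038 and 0.00025 by edgeR. Replicate 1 had the highest mitochondrial share with palbociclib and with doxorubicin, whereas with INK128 library 2 (14.8%) was slightly above library 1 (14.3%). Without replicate 1 of every A549 group the rises were 2.79, 3.97 and 4.32. The part of mitochondrial share in these values was not tested.

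The response of IGFBP7 was larger in SK-MEL-147 than in A549 by 2.03 ± 0.50 with palbociclib and by 2.21 ± 0.51 with doxorubicin (log2 ± SE, interaction test, adjusted p = 0.0056 and 0.0025). These were 1.39 and 1.58 without A549 control replicate 1, and to 1.17 and 1.24 without replicate 1 of every A549 group, and were still called. With INK128 the line difference was -0.18 ± 0.52, 95% interval -1.25 to 0.89, and was not called. Without replicate 1 of every A549 group it became -1.11 and was called (adjusted p = 0.045). For palbociclib and INK128 the dose also differed between the lines, and line and dose cannot be told apart. IGFBP7 overlaps 3 genes on the other strand. Of these, POLR2B shared 270 exon bases and had group means of 70.1 to 161 CPM, and IGFBP7-AS1 shared 94 exon bases. The antisense gene was at 4.58 ± 2.32 CPM with INK128, 3.12 ± 0.91 with palbociclib, 4.70 ± 1.47 with doxorubicin and 1.52 ± 0.43 in control SK-MEL-147 cells (SD, n = 4 each), and at 0.083 to 1.05 CPM in the A549 groups. The kit keeps strand, but whether the counting used it is not given in the sources used here.

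IGFBP3, the most abundant carrier in blood, rose with both senescence inducers in both lines, and fell with INK128 in SK-MEL-147. In SK-MEL-147 it had 20.2, 12.9, 15.8 and 15.5 CPM with INK128, 105, 60.7, 209 and 208 CPM with palbociclib, 112, 59.3, 122 and 231 CPM with doxorubicin, and 51.5, 48.1, 37.9 and 27.0 CPM in control cells. All 4 INK128 libraries were below, and all palbociclib and doxorubicin libraries above, the control libraries, with library 2 the nearest to control for both senescence inducers. IGFBP3 fell by 1.39 ± 0.39 (log2 ± SE) with INK128, adjusted p = 0.0056, and rose by 1.75 ± 0.38 with palbociclib and 1.60 ± 0.38 with doxorubicin, adjusted p = 0.00092 and 0.0018. Between INK128 and the senescence inducers the difference was -3.14 ± 0.41 against palbociclib and -2.99 ± 0.40 against doxorubicin, adjusted p = 1.3e-05 and 2.1e-05.

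In A549, IGFBP3 had 188, 283, 252 and 253 CPM with INK128 in libraries 1, 2, 2-2 and 3, 939, 463, 884 and 794 CPM with palbociclib, 592, 384, 689 and 744 CPM with doxorubicin, and 178, 154, 274 and 256 CPM in control cells. The palbociclib and doxorubicin libraries lay above all control libraries, and those of INK128 were mixed with them. IGFBP3 rose by 1.88 ± 0.20 with palbociclib, 3.68-fold, and by 1.53 ± 0.20 with doxorubicin, 2.88-fold (adjusted p = 2.8e-05 and 0.00012), while the INK128 difference was 0.15 ± 0.19 with an adjusted p of 0.57 and a 95% interval of -0.28 to 0.57. The line difference of the INK128 response, -1.56 ± 0.50 with adjusted p = 0.043, was no longer called in 15 of its alternatives, among them 11 that left out 1 replicate of 1 group. For the senescence inducers the line differences of IGFBP3 were -0.27 ± 0.50 with palbociclib and -0.05 ± 0.50 with doxorubicin and were not called.

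IGFBP5, the other partner of the acid-labile subunit, rose in A549 with both senescence inducers. It had 0.104, 0.910, 0.841 and 0.965 CPM with INK128 in libraries 1, 2, 2-2 and 3, 3.90, 22.7, 18.4 and 20.5 CPM with palbociclib, 2.55, 8.25, 10.7 and 13.5 CPM with doxorubicin, and 0.733, 0.131, 0.635 and 0.744 CPM in control cells. Both senescence groups lay above all INK128 and control libraries, which overlapped each other, and library 1 was the lowest with each drug. IGFBP5 rose by 4.64 ± 0.83 with palbociclib, 25.0-fold, and by 3.82 ± 0.82 with doxorubicin, 14.1-fold (log2 ± SE, adjusted p = 0.00096 and 0.0029). Without replicate 1 of every A549 group the rises were 5.34 and 4.47. INK128 differed from palbociclib by -4.46 ± 0.82 and from doxorubicin by -3.63 ± 0.80, adjusted p = 0.0013 and 0.0040. Against control the INK128 difference, 0.18 ± 0.86, was not called.

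In SK-MEL-147, IGFBP5 had 2, 4, 1 and 1 counts with INK128, 17, 8, 17 and 9 counts with palbociclib, 3, 3, 3 and 2 counts with doxorubicin, and 0 counts in all 4 control libraries. Every treated library held at least 1 count, and palbociclib held the most. Set against a floor of 3 counts over the control group, IGFBP5 was 2.80-fold higher with INK128, 21.5-fold with palbociclib and 4.13-fold with doxorubicin. These are not lower limits, since the 8, 51 and 11 counts of the treated groups carry counting error. With no filter on low counts it was called in all 3 comparisons, with adjusted p = 0.0095 for INK128, 2.0e-07 for palbociclib and 0.0020 for doxorubicin. It was then also the only member called between palbociclib and doxorubicin, at 51 against 11 counts over the group and an adjusted p of 0.032. One antisense gene overlaps IGFBP5 and had 1 count in all libraries together.

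**Figure D2:**
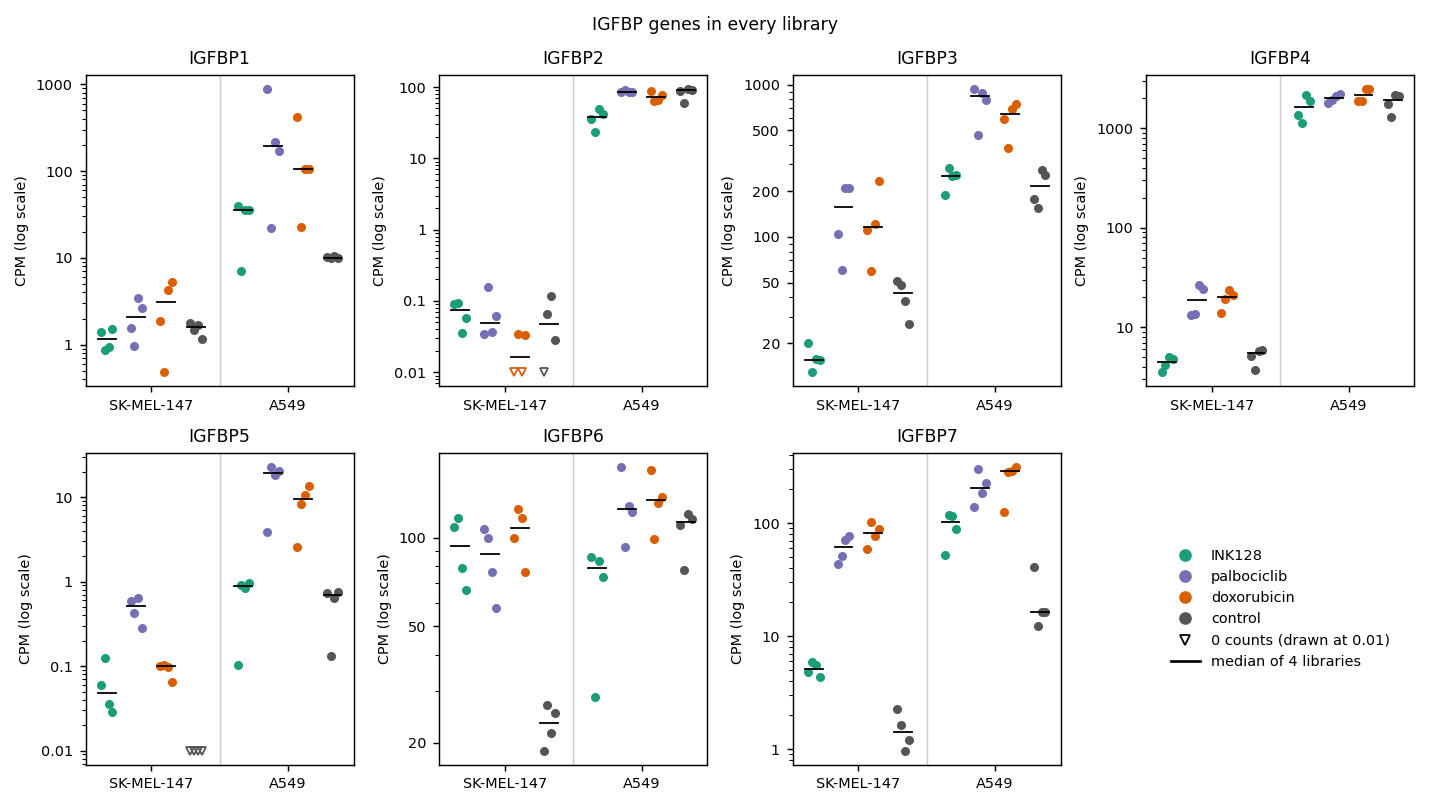
CPM of each IGFBP gene in every library (log y axis), by line and group, with the median of the 4 libraries as a bar and libraries at 0 counts as open triangles at 0.01. IGFBP2 and IGFBP4 separate the lines most, and the 4 control libraries of IGFBP5 in SK-MEL-147 are all at 0.

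IGFBP4, the substrate of PAPPA, rose in SK-MEL-147 with both senescence inducers and was high in every A549 group. In SK-MEL-147 it had 3.52, 4.14, 5.03 and 4.83 CPM with INK128, 13.3, 13.6, 26.4 and 24.1 CPM with palbociclib, 13.8, 19.2, 23.8 and 21.2 CPM with doxorubicin, and 5.07, 3.73, 5.81 and 5.93 CPM in control cells. The senescence libraries were all above the control libraries, and INK128 overlapped control. The rise was 1.83 ± 0.24 with palbociclib and 1.84 ± 0.24 with doxorubicin (log2 ± SE, adjusted p = 5.6e-06 and 4.5e-06), against a difference of -0.28 ± 0.24 with INK128 that was not called.

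In A549, IGFBP4 averaged 1628 ± 252 CPM with INK128, 1990.4 ± 210.1 CPM with palbociclib, 2176 ± 318 CPM with doxorubicin and 1870 ± 215 CPM in control cells (SD, n = 3 each). These groups overlapped and none differed from control by the test. The responses to palbociclib and doxorubicin were larger in SK-MEL-147 than in A549 by 1.61 ± 0.31 and 1.51 ± 0.31 (adjusted p = 0.00053 and 0.00087). The A549 replicate numbers pair the samples, and with the replicate as a block IGFBP4 was called lower with INK128 than with palbociclib (adjusted p = 0.035) and than with doxorubicin (adjusted p = 0.0055), which the fit without the block did not call. The difference from doxorubicin was called in 7 of 17 alternatives, DESeq2 among them (adjusted p = 0.021).

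IGFBP6, the binder that favours IGF-II, rose with all 3 drugs in SK-MEL-147. It had 109, 117, 78.8 and 66.4 CPM with INK128, 107, 99.7, 76.6 and 57.8 CPM with palbociclib, 99.6, 126, 117 and 76.4 CPM with doxorubicin, and 18.8, 26.9, 21.7 and 25.2 CPM in control cells. The lowest treated library was above the highest control library, and the 3 treated groups overlapped each other. The rises were 1.96 ± 0.23, 1.80 ± 0.23 and 2.09 ± 0.23 with INK128, palbociclib and doxorubicin (log2 ± SE), adjusted p = 2.9e-06, 4.0e-06 and 7.0e-07. INK128 differed from palbociclib by 0.16, 95% interval -0.30 to 0.62, and from doxorubicin by -0.14, 95% interval -0.60 to 0.32.

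In A549, IGFBP6 had 85.8, 28.6, 83.5 and 73.8 CPM with INK128 in libraries 1, 2, 2-2 and 3, 174, 93.2, 129 and 122 CPM with palbociclib, 170.2, 98.9, 132 and 137 CPM with doxorubicin, and 110.2, 77.7, 121 and 116 CPM in control cells. Library 2 was the lowest of each group, and over single libraries every drug overlapped control. With libraries 2 and 2-2 added, the 3 INK128 replicates, at 57.1 to 85.8 CPM, lay below the 3 control replicates, at 99.5 to 116 CPM. Against the control library of the same title, INK128 was lower in all 4, at 0.368 to 0.778 times. None of the 3 differences was called: -0.56 ± 0.21 with INK128 (adjusted p = 0.052), 0.32 ± 0.21 with palbociclib and 0.38 ± 0.21 with doxorubicin. The INK128 difference was called lower in 9 of 17 alternatives, among them DESeq2 (adjusted p = 0.028), library size alone (0.031), no filter (0.019) and the replicate block (0.0016). With the block the gene was also called higher with doxorubicin (adjusted p = 0.023). The response was larger in SK-MEL-147 than in A549 by 2.50 ± 0.33 with INK128, 1.35 ± 0.33 with palbociclib and 1.60 ± 0.33 with doxorubicin (adjusted p = 2.8e-05, 0.0047 and 0.0010).

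IGFBP1, the insulin-suppressed binding protein made mainly by liver, rose in A549 with both senescence inducers, with the widest spread between libraries of any member. It had 39.1, 7.03, 35.4 and 35.8 CPM with INK128 in libraries 1, 2, 2-2 and 3, 889, 22.0, 216 and 169 CPM with palbociclib, 414, 22.5, 106 and 104 CPM with doxorubicin, and 10.2, 9.94, 10.4 and 9.99 CPM in control cells. The control libraries were nearly equal, library 2 was the lowest with each drug, and library 1 the highest. The palbociclib and doxorubicin libraries all lay above control, while library 2 of INK128 lay below it. In library 2, IGFBP1 was 0.708 times control with INK128, 2.21 times with palbociclib and 2.26 times with doxorubicin, whereas in the other 3 libraries these ratios were 3.41 to 3.85, 16.9 to 87.5 and 10.2 to 40.8.

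IGFBP1 rose by 5.27 ± 0.92 with palbociclib and 4.28 ± 0.88 with doxorubicin in A549 (log2 ± SE, adjusted p = 0.00078 and 0.0023). These values ranged over 3.81 to 5.71 and 3.06 to 4.71 in the alternatives tried and remained called in each. The INK128 difference was 1.69 ± 0.80 with adjusted p = 0.11, and was called in 5 of 17 alternatives, at 0.023 with the replicate block. INK128 was called lower than palbociclib, at a difference of -3.58 ± 0.84 (adjusted p = 0.0055), and lower than doxorubicin, at -2.58 ± 0.81 (adjusted p = 0.024). The first was -2.12 without palbociclib replicate 1 and was still called (adjusted p = 0.018). The second was -1.37 without doxorubicin replicate 1 and was then not called (adjusted p = 0.13). It was also lost without any 1 of the INK128 replicates (adjusted p = 0.051 to 0.088) and with library 2 alone as replicate 2 (0.10). Over 5 hepatocyte markers the summed level was 3.64 CPM with INK128, 32.1 CPM with palbociclib, 25.1 CPM with doxorubicin and 1.46 CPM in control A549 cells, most of it SERPINA1, with ALB at 0.125 to 2.35 CPM. Their part in the IGFBP1 values was not tested.

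In SK-MEL-147, IGFBP1 was low: 1.40, 0.871, 0.927 and 1.53 CPM with INK128, 1.54, 0.955, 3.42 and 2.63 CPM with palbociclib, 1.89, 0.480, 4.30 and 5.31 CPM with doxorubicin, and 1.80, 1.46, 1.70 and 1.15 CPM in control cells. All drug groups overlapped control and none was called. Without doxorubicin replicate 2, which had the lowest value of all, the doxorubicin difference of 0.89 ± 0.50 became 1.28 and was called (adjusted p = 0.0099). INK128 was called lower than doxorubicin, at a difference of -1.30 ± 0.51 (adjusted p = 0.044), although the libraries overlapped; this call was lost without doxorubicin replicate 3 (adjusted p = 0.12) or 4 (adjusted p = 0.18) and without any 1 of the 4 INK128 replicates (adjusted p = 0.055 to 0.10), with library size alone (0.050) and with only the 2 groups compared (0.081). The response was smaller in SK-MEL-147 than in A549, with a line difference of -4.97 ± 0.99 for palbociclib and -3.50 ± 0.96 for doxorubicin (adjusted p = 0.00079 and 0.010). The palbociclib line difference was -3.49 without A549 palbociclib replicate 1 and was still called (adjusted p = 0.0045). The doxorubicin line difference was -2.25 and no longer called without A549 doxorubicin replicate 1 (adjusted p = 0.071) or with library 2 alone as replicate 2 (adjusted p = 0.085).

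**Figure D3:**
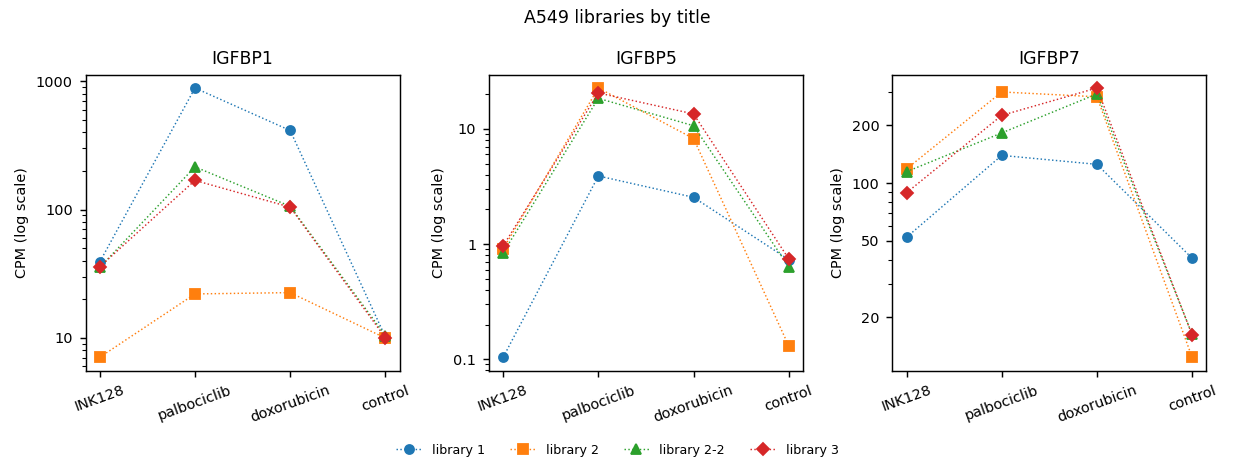
CPM (log y axis) of IGFBP1, IGFBP5 and IGFBP7 in the 4 A549 libraries of each group, joined by library title as a guide to the eye. Library 2 is lowest for IGFBP1 with each drug, at 22.0 CPM with palbociclib, and library 1 is lowest for IGFBP5 and IGFBP7 with each drug.

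IGFBP2, a binder often high in tumours, fell in A549 with INK128. It had 35.2, 23.1, 48.7 and 41.8 CPM with INK128 in libraries 1, 2, 2-2 and 3, 85.6, 92.0, 85.7 and 84.3 CPM with palbociclib, 88.3, 62.7, 66.6 and 77.2 CPM with doxorubicin, and 88.1, 59.9, 94.6 and 92.1 CPM in control cells. Every INK128 library lay below every library of the other groups. IGFBP2 fell by 1.16 ± 0.13 (log2 ± SE) with INK128, adjusted p = 0.00015, and its differences from control were 0.0036 ± 0.13 with palbociclib and -0.16 ± 0.13 with doxorubicin, neither called. INK128 differed from palbociclib by -1.16 ± 0.13 and from doxorubicin by -0.999 ± 0.13 (adjusted p = 7.5e-05 and 0.00023). In SK-MEL-147, IGFBP2 had 0 to 4 counts a library, 9 in all with INK128, 7 with palbociclib, 2 with doxorubicin and 7 in control cells, and no difference was detectable at this depth.

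Between the senescence inducers themselves, no member that passed the filter was called in either line. Palbociclib against doxorubicin called 0 of 5 members in SK-MEL-147, where 0.0594% of all genes were called, and 0 of 7 in A549, where 0% were. These shares are from the fit without the replicate block. Same-numbered samples of these groups deviated together, with correlations of 0.468 to 0.596 in SK-MEL-147 and 0.586 to 0.815 in A549. That fit does not use the pairing, so its few calls do not show that the 2 drugs acted alike. These calls are by edgeR. Among the members tested in each line 0 had an unadjusted p under 0.05, and DESeq2 also called 0. The filter left out IGFBP2 and IGFBP5 in SK-MEL-147. With no filter, IGFBP5 was called higher with palbociclib there, at a log2 difference of 2.33 (edgeR adjusted p = 0.032), and IGFBP2 was not called. For the members that passed the filter, log2 differences, palbociclib minus doxorubicin, ran between -0.47 for IGFBP1 and 0.15 for IGFBP3 in SK-MEL-147. In A549 they ran between -0.25 for IGFBP7 and 1.00 for IGFBP1. The 95% interval for IGFBP1 in A549 was -0.69 to 2.68, and that for IGFBP4 in SK-MEL-147 was -0.49 to 0.47.

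INK128 lay below the senescence inducers for most members. INK128 was renewed at each change of medium, whereas the other drugs were withdrawn after 72 h. Continued presence of the drug and the state it induced cannot be told apart. Against palbociclib, 3 of 5 were called lower in SK-MEL-147, where 25.8% of all genes were called lower, and 6 of 7 in A549, where 20.5% were. Against doxorubicin, 4 of 5 were called lower in SK-MEL-147 (24% of all genes) and 6 of 7 in A549 (19.7% of all genes). The counts against doxorubicin changed in 8 of 15 alternatives in SK-MEL-147 and in 11 of 17 in A549. They ran over 3 to 4 and 4 to 7 when a replicate was left out. Those against palbociclib changed in 6 of 15 and 9 of 17, and ran over 3 to 4 and 5 to 6. No member was called higher in these 4 comparisons. In A549, where IGFBP4 was the exception, IGFBP6 differed by -0.88 ± 0.21 from palbociclib and by -0.94 ± 0.21 from doxorubicin (adjusted p = 0.0062 and 0.0046). The call against palbociclib was lost with library 2 alone as replicate 2 (adjusted p = 0.056). IGFBP7 differed there by -1.21 ± 0.45 and -1.46 ± 0.45 (adjusted p = 0.048 and 0.023), and IGFBP3 by -1.73 ± 0.20 and -1.38 ± 0.20 (adjusted p = 7.3e-05 and 0.00033). The IGFBP7 call against palbociclib was lost in 8 alternatives (adjusted p up to 0.14, without INK128 replicate 1). That against doxorubicin was lost without doxorubicin replicate 2 or 3, or INK128 replicate 1 or 3 (adjusted p = 0.060 to 0.077). In SK-MEL-147, IGFBP4 differed by -2.11 ± 0.24 from palbociclib and by -2.12 ± 0.24 from doxorubicin (adjusted p = 3.8e-06 and 4.1e-06).

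The responses to palbociclib and doxorubicin differed between the lines for the same 4 members. Each senescence inducer gave 4 of 7 called line differences, 3 of them higher in SK-MEL-147 (IGFBP4, IGFBP6 and IGFBP7) and 1 lower (IGFBP1). Of all 21761 genes, 19.2% were called in the palbociclib test (8.37% higher, 10.8% lower) and 19.8% in the doxorubicin test (8.49% higher, 11.3% lower). The INK128 response differed for 2 of 7, IGFBP6 higher and IGFBP3 lower in SK-MEL-147 (the IGFBP3 call being lost in 15 of 24 alternatives), where 11.9% of all genes were called (6.51% higher, 5.42% lower). The tests of one drug and another share the control libraries.

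In control cells the family was far lower in SK-MEL-147. All 7 members were called lower in control SK-MEL-147 cells than in control A549 cells, where 66.7% of all genes were called and 33.4% were called lower. For IGFBP2 the SK-MEL-147 mean was 0.053 ± 0.051 CPM (n = 4), against 85.9 ± 7.52 CPM for A549 (n = 3), a log2 difference of -10.53 ± 0.30 (adjusted p = 3.8e-19). The SK-MEL-147 mean of IGFBP4 was 5.14 ± 1.01 CPM, against 1870 ± 215 CPM for A549, a log2 difference of -8.44 ± 0.28 (adjusted p = 4.4e-18). IGFBP5, with 0 counts in control SK-MEL-147 cells, was 25.0-fold lower than in A549 when a floor of 3 counts was put in place of the 0. For IGFBP1, IGFBP3, IGFBP6 and IGFBP7 the log2 differences were -2.67, -2.34, -2.17 and -3.91, the last being -3.28 without A549 control replicate 1. With 1 line from each tissue, tissue of origin and cell line cannot be told apart.

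Levels were also divided by the merged length of all annotated exons of a gene, and ranks between genes rest on this choice. Per kb of exon, a different member led the family in each line. In SK-MEL-147 this was IGFBP6, with 88.5% of the family's summed CPM per kb under INK128, 46.2% under palbociclib, 48.8% under doxorubicin and 56.9% in control cells. IGFBP7 made up 3.41%, 23.1%, 26.5% and 2.59% of the sum in those groups. In plain CPM the order in SK-MEL-147 was another. By group means IGFBP3 stood above IGFBP6 with palbociclib (146 against 85.3), with doxorubicin (131 against 105) and in control cells (41.1 against 23.2). Single libraries were split, with IGFBP3 below IGFBP6 in palbociclib libraries 1 (105 against 107 CPM) and 2 (60.7 against 99.7 CPM). The same held in doxorubicin library 2 (59.3 against 126 CPM). With INK128 IGFBP6 was the higher, at 92.6 against 16.1 CPM. In A549 the leader was IGFBP4, with 80.7% under INK128, 58.7% under palbociclib, 66.4% under doxorubicin and 83.8% in control cells. IGFBP1 made up 15.3% of the A549 sum under palbociclib, 7.89% under doxorubicin, 2.12% under INK128 and 0.603% in control cells. Without replicate 1, which had the highest IGFBP1 level under both drugs, the share was 5.99% under palbociclib and 3.36% under doxorubicin. Without the division by length, the family summed to 120 ± 23.9 CPM with INK128, 314 ± 77.6 CPM with palbociclib, 340 ± 60.0 CPM with doxorubicin and 72.5 ± 9.96 CPM in control SK-MEL-147 cells (SD, n = 4 each). In A549 it summed to 2093 ± 302, 3620 ± 386, 3463 ± 366 and 2315 ± 254 CPM in those groups (SD, n = 3 each).

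**Figure D4:**
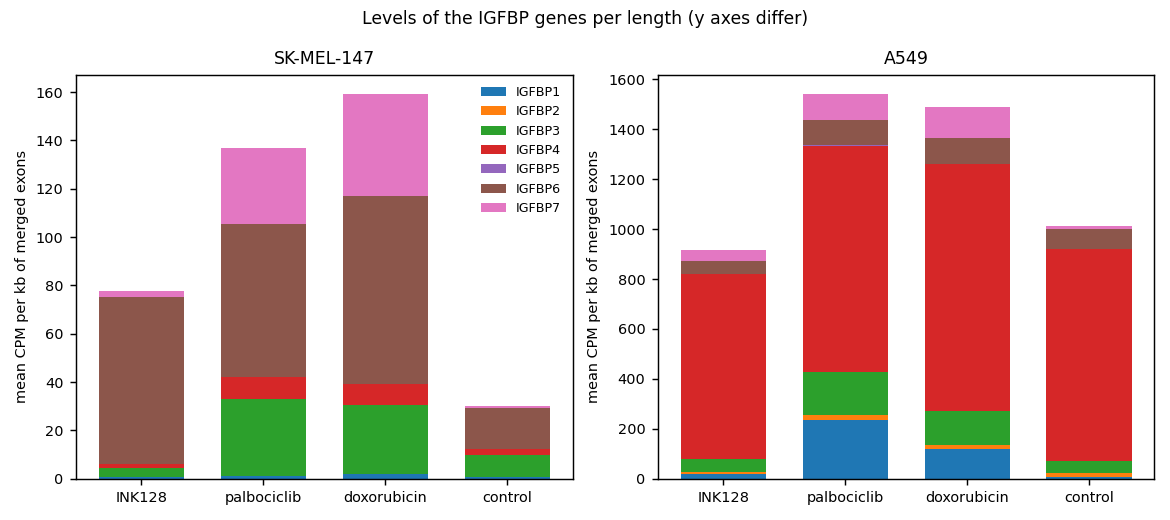
Mean CPM per kb of merged exons of the 7 IGFBP genes, stacked, by group in SK-MEL-147 (left) and A549 (right); the y axes differ. IGFBP6 is the largest block in every SK-MEL-147 group and IGFBP4 in every A549 group, with 88.5% of the family for IGFBP6 under INK128.

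The order of the 8 groups differed by member. A549 groups held the first 4 places for IGFBP1, IGFBP2, IGFBP3, IGFBP4 and IGFBP5. For IGFBP3 and IGFBP5 the lowest of these groups, A549 control cells, overlapped palbociclib-treated SK-MEL-147 cells. For IGFBP7 the doxorubicin and palbociclib groups of SK-MEL-147, at 81.5 and 61.0 CPM, stood above A549 control cells at 23.7 CPM, and the A549 INK128 group, at 86.0 ± 32.3 CPM, overlapped doxorubicin-treated SK-MEL-147 cells. For IGFBP6 the first 7 groups, with means of 72.2 to 141 CPM, overlapped each with the next, and only control SK-MEL-147 cells, at 23.2 CPM, stood apart.

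Transcripts of the growth factors that these proteins bind were nearly absent, while growth factor protein, from the medium included, was not measured. IGF1 averaged at most 0.231 CPM and IGF2 at most 0.0802 CPM in any group, both in doxorubicin-treated A549 cells. INS, the insulin gene, had 0 counts. Receptor transcripts were present. IGF1R, the signalling receptor, rose with INK128 by 1.25 in SK-MEL-147, where it averaged 82.4 CPM with INK128 and 33.8 CPM in control cells, and by 0.69 in A549, at 301 CPM with INK128 and 189.6 CPM in control cells (log2, adjusted p = 0.00098 and 0.046). It was not called with palbociclib or doxorubicin in either line. IGF2R, which clears IGF-II, rose by 0.69 to 0.94 with every drug in both lines.

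Of 32 other genes of the IGF system, 21 were tested in SK-MEL-147 and 26 in A549. In SK-MEL-147, 12 were called with INK128 (8 higher, 4 lower), 14 with palbociclib (11 higher, 3 lower) and 15 with doxorubicin (11 higher, 4 lower). These are 57.1%, 66.7% and 71.4% of those tested, beside 58.7%, 58.4% and 59.8% of all genes. In A549, 11 were called with INK128 (10 higher, 1 lower), 16 with palbociclib (15 higher, 1 lower) and 15 with doxorubicin (14 higher, 1 lower), which are 42.3%, 61.5% and 57.7%, beside 40.2%, 43.3% and 43.3% of all genes. The INK128 shares are near those of all genes, and with so few genes on the list whether the other shares stand apart was not tested. The list's median log2 change was 0.31, 0.85 and 0.77 with INK128, palbociclib and doxorubicin in SK-MEL-147 and 0.72, 0.86 and 0.73 in A549, beside medians over all genes of -0.0018 to 0.03.

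The called genes included proteases that cut IGF binding proteins. PAPPA, which cleaves IGFBP4, averaged 433 ± 98.5 CPM with INK128, 482 ± 140 with palbociclib, 731 ± 113 with doxorubicin and 101 ± 55.0 CPM in control SK-MEL-147 cells. In A549 it averaged 487 ± 127, 467 ± 108, 581 ± 62.6 and 136 ± 27.4 CPM in those groups. It rose by 1.77 to 2.80 on the log2 scale in all 6 comparisons with control. HTRA1, a serine protease of several binding proteins, rose by 3.56, 3.33 and 3.46 with INK128, palbociclib and doxorubicin in SK-MEL-147, and by 1.95, 2.00 and 2.01 in A549. ADAM12, which cuts IGFBP3 and IGFBP5, rose by 3.41 ± 0.26 with palbociclib and 3.37 ± 0.26 with doxorubicin in SK-MEL-147 and was called lower with INK128 there, at -0.81. Not every listed protease rose. PAPPA2 averaged 1.62, 2.11, 1.53 and 4.51 CPM with INK128, palbociclib, doxorubicin and in control SK-MEL-147 cells, and 0.0682, 0.690, 0.343 and 0.0283 CPM in those groups of A549. ADAM9 averaged 155, 299, 249 and 263 CPM in SK-MEL-147 and 321, 455, 427 and 490 CPM in A549.

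STC1, a stanniocalcin that inhibits PAPPA, went opposite ways in the lines with the senescence inducers. It fell by 1.22 with palbociclib and by 1.84 with doxorubicin in SK-MEL-147, whereas it rose by 3.44 ± 0.15 and 3.07 ± 0.15 with these drugs in A549. The line difference was -4.78 ± 0.45 with palbociclib and -5.03 ± 0.46 with doxorubicin (log2 ± SE, edgeR adjusted p = 1.9e-07 and 6.8e-08). With INK128 STC1 rose by 1.30 ± 0.14 in A549, and the difference of 0.11 ± 0.33 in SK-MEL-147 was not called. The other stanniocalcin on the list, STC2, did not follow STC1 in SK-MEL-147. It averaged 302 CPM with INK128, 502 with palbociclib, 702 with doxorubicin and 146 in control cells there. In A549 STC2 averaged 86.5, 99.6, 62.9 and 54.8 CPM in those groups. GRB10, an adaptor that restrains insulin and IGF receptor signalling, rose in SK-MEL-147 by 2.01 ± 0.29 with INK128, 1.72 ± 0.29 with palbociclib and 2.31 ± 0.29 with doxorubicin. INSR, the insulin receptor, rose in A549 by 1.35 ± 0.14 with INK128, 0.54 ± 0.14 with palbociclib and 0.40 ± 0.14 with doxorubicin. CCN3, a secreted protein with an IGF binding domain, rose in A549 by 1.5 ± 0.22 with INK128, 2.83 ± 0.23 with palbociclib and 2.30 ± 0.23 with doxorubicin.

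**Figure D5:**
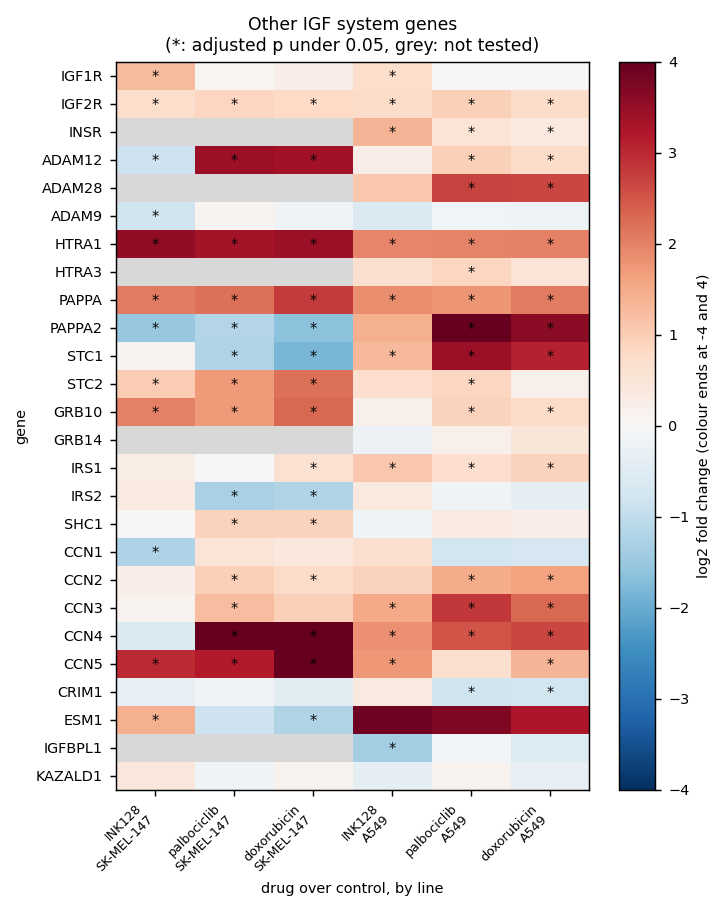
Log2 fold change over control (colour) of the tested genes among 32 other IGF system genes (rows), by drug and line (columns); stars mark adjusted p under 0.05 and grey cells were not tested. HTRA1, PAPPA and IGF2R are starred in all 6 columns, and STC1 and PAPPA2 are blue in the SK-MEL-147 senescence columns and red in those of A549.

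By the likeness of log2 CPM over samples, each member with at least 10 CPM in its highest group had close companions, given here as a description, since samples of a line share treatments and replicate numbers. Over the 16 SK-MEL-147 samples and 10985 genes, IGFBP7 was most like PRICKLE2 and SLC44A2 (Pearson r = 0.989 and 0.988), IGFBP4 most like MOXD1 and LFNG (0.984 and 0.981), IGFBP6 most like DHRS3 and PHF21A (0.977 and 0.961) and IGFBP3 most like SPATS2 and CNN1 (0.971 and 0.970). Over the 12 A549 samples and 11124 genes, IGFBP1 was most like TRADD and SHFL (0.991 and 0.989), IGFBP3 most like STS and LBP (0.984 and 0.983), IGFBP5 most like SLC30A7 and TPST2 (0.983 and 0.981) and IGFBP7 most like ADGRF4 and TNS1 (0.981 and 0.977). Markers of fibroblasts, a cell type in which several IGF binding proteins are high, summed to 14.1 CPM with INK128, 133 with palbociclib, 101 with doxorubicin and 19.1 CPM in control SK-MEL-147 cells over 10 genes, and to 10.7, 32.6, 38.7 and 15.3 CPM in those groups of A549. In SK-MEL-147 most of the sum was LUM, at 12.9, 100.5, 76.5 and 17.7 CPM, and COL1A1, at 0.560, 29.1, 22.8 and 0.951 CPM. In A549 it was THY1, at 3.85, 14.5, 18.6 and 5.59 CPM, and COL1A1, at 6.22, 12.1, 15.8 and 8.07 CPM. DCN and THY1 were under 0.1 CPM in every SK-MEL-147 group and COL1A2 and POSTN in every A549 group. Their part in the members' values was not tested.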

How the data were processed

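The deposited table held whole-number counts of reads per gene for 32 libraries. Alignment by the authors used STAR 2.7.10a and GRCh38.p13, with counting by featureCounts, per the submitters' processing notes; the annotation release and the handling of strand and multiply matching reads are not given in the sources used here. Per the labels' protocols, a stranded kit for polyadenylated RNA was used. Members and lists were chosen with earlier results of these data known. All 7 members are named. From the list of 32 IGF system genes, up to 3 called genes with the smallest adjusted p in each comparison with control are named. These were past 1 on the log2 scale, with at least 5 CPM in the higher group. PAPPA and HTRA1 (shown in each comparison), IGF1R, IGF2R, STC2, PAPPA2, ADAM9 and the ligands were named after their values were seen.

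Counts were tested with edgeR 4.0.16 (TMM, filterByExpr, glmQLFit and glmQLFTest) in R 4.3.3 over all genes, one fit per line and one over both lines for line differences, with Benjamini-Hochberg adjustment; 95% intervals use the t distribution with the test's degrees of freedom. The procedure was checked on simulated counts with few changed genes and unpaired samples. It was not checked at the shares of genes called or with the pairing of samples found here. A549 libraries 2 and 2-2 were summed. Same-numbered samples deviated together in all A549 comparisons (correlations of 0.164 to 0.815), so these numbers pair the samples; in SK-MEL-147 they did so in 4 of 6 comparisons, and not for doxorubicin against control (lowest 0.0769) or INK128 against palbociclib (lowest 0.0667). Alternatives were DESeq2 1.42.0, its size factors, library size alone, other filters, the replicate block, A549 libraries 2 and 2-2 apart or alone, fits of only the compared groups, and leaving out each replicate. Near-identical gene copies were not examined.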

Additional observations from a re-analysis of the deposited data

Results flagged for a closer look

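IGFBP5 in SK-MEL-147 cells given doxorubicin had 1 library below the other 3, at 0.0656 CPM, which stands for 2 counts against 3 in each of the others. The gap was large for the group's range by Dixon's test, the 1 such value among 27 groups of 4 libraries, and chance flags about 1 in 20 groups.

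The other results differed between the lines by the interaction test (SK-MEL-147 minus A549, log2). With INK128 these were IGFBP3 at -1.56 and IGFBP6 at 2.50. With palbociclib they were IGFBP1 at -4.97, IGFBP4 at 1.61, IGFBP6 at 1.35 and IGFBP7 at 2.03. With doxorubicin they were IGFBP1 at -3.50, IGFBP4 at 1.51, IGFBP6 at 1.60 and IGFBP7 at 2.21.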

How the results depend on the processing

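Over the 100 single-gene results, 1780 alternatives were run, of which 1669 kept direction and side of the threshold, 25 gained a call, 43 lost one and 43 turned sign; every sign change was in a difference that was not called. Of 57 called results, 50 were past the threshold in every alternative run. With INK128 in A549 the count of members called, 2, became 4 with no filter, with the replicate block, with library 2-2 alone and with only the 2 groups compared, 3 with DESeq2, its size factors and library size alone, and ran over 2 to 4 when a replicate was left out. Palbociclib against doxorubicin in SK-MEL-147, 0, became 1 (IGFBP5) with no filter, and 0 to 1 when a replicate was left out. The INK128 line difference, 2, became 1 with library size alone, with library 2 alone and with library 2-2 alone, and 1 to 2 when a replicate was left out. The causes were not tested. In the paired comparisons the replicate block changed the calls given beside IGFBP1, IGFBP4 and IGFBP6 in A549 and no other call. Library size alone moved the median of all genes by 0.16 for the doxorubicin and by 0.19 for the palbociclib line difference.

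Signs turned as follows (log2). IGFBP2 with palbociclib in A549 was -0.075 with library size alone, -0.040 with no filter, -0.093 with library 2-2 alone, and -0.056 to 0.058 without a replicate. With INK128 in A549, library 2-2 alone gave -0.00059 for IGFBP3 and -0.10 for IGFBP5, and leaving out a replicate gave -0.14 to 0.63 for IGFBP5 (0.85 without replicate 1 of every group). The doxorubicin line difference of IGFBP3 was 0.11 with library size alone, 0.19 with libraries 2 and 2-2 apart, 0.13 with library 2 alone, 0.028 without replicate 1 of every A549 group, and -0.47 to 0.25 without a replicate. The INK128 line difference of IGFBP4 was 0.020 with library 2 alone. When a replicate was left out, palbociclib against doxorubicin gave -0.50 to 2.26 (IGFBP1) and -0.30 to 0.13 (IGFBP6) in A549, and -0.10 to 0.57 (IGFBP3) and -0.20 to 0.13 (IGFBP4) in SK-MEL-147. INK128 against palbociclib in SK-MEL-147 gave -0.0024 to 0.29 for IGFBP6. Line differences were -0.39 to 1.03 (IGFBP2) and -0.53 to 0.049 (IGFBP3) with palbociclib, and -0.22 to 0.0049 (IGFBP4) and -0.82 to 0.12 (IGFBP7) with INK128; leaving replicate 1 out of all A549 groups at once gave -1.11 for IGFBP7, which was then called (adjusted p = 0.045).

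Depth limited IGFBP2 and IGFBP5 in SK-MEL-147, where group totals of 0 to 51 counts carry wide counting error. Whether A549 libraries 2 and 2-2 are 1 culture is not stated, and in treated cells IGFBP1 differs between them more than any other member.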
